A study of Mus musculus with 96 samples.

Results

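The 10 genes described here report on protein folding stress in the endoplasmic reticulum (ER) and on the integrated stress response in mouse liver cells. They are Hspa5, Dnajb9, Herpud1, Xbp1, Creb3l3, Atf4, Ddit3, Trib3, Asns and Chac1. These 10 were chosen by name for their known roles, with earlier results of these data known. Each was matched by symbol, and where several transcripts carried the symbol the one with the greatest mean was taken, which gave all 10 of the 25095 symbols listed in each table of values. In hepatocytes, the 2 that rose in RevScapTKO mice, labelled as lacking both REV-ERB receptors and Scap, were the chaperone gene Hspa5 and the pseudokinase gene Trib3, while the transcription factor genes Atf4 and Creb3l3 fell, in a comparison with Control that called 35.9% of all genes. Atf4 (-0.44) and Creb3l3 (-0.38) were also lower than Control in RevDKO mice, labelled as lacking the REV-ERB receptors alone, where 4.43% of all genes were called. Neither was called between RevScapTKO and RevDKO. Macrophage markers were higher in the same RevScapTKO libraries, and with them as a covariate the Hspa5 (0.23, adjusted p = 0.445), Trib3 (0.92, adjusted p = 0.0518) and Creb3l3 (-0.17, adjusted p = 0.581) differences from Control, on the log2 scale, were not called by limma. That of Atf4 was (-0.53, adjusted p = 0.0176).

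The ER is where secreted and membrane proteins fold, and 3 sensors in its membrane, encoded by Ern1 (IRE1), Eif2ak3 (PERK) and Atf6, start the unfolded protein response when unfolded proteins accumulate. IRE1 removes a short intron from Xbp1 mRNA so that the active XBP1 factor is made. ATF6 is cut in the Golgi by the same site proteases that release the SREBP lipid regulators, and ATF6 and XBP1 raise genes of chaperones and of ER-associated degradation. PERK and other kinases phosphorylate the initiation factor eIF2α, which slows translation in general but favours that of ATF4, and ATF4 raises genes of amino acid supply, of CHOP (Ddit3) and of feedback regulators. The liver secretes large amounts of plasma protein and lipoprotein, and it has a factor of its own in this family, CREBH (Creb3l3), which is also cleaved by the site proteases.

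Bulk RNA sequencing had been done on 96 libraries, 48 of hepatocytes (Hep) and 48 of liver macrophages (KC), with 3 for each of 4 genotypes at ZT4, ZT10, ZT16 and ZT22, where ZT (zeitgeber time) counts the hours from the start of the light phase in a cycle of 12 h light and 12 h dark. All mice were male C57BL/6J mice with floxed alleles that were fed a high-fat, high-sucrose diet for 4 weeks. Control mice received the adeno-associated virus AAV-TBG-GFP and the others AAV-TBG-CRE, in which the hepatocyte promoter TBG drives Cre, so that the genes were deleted in hepatocytes and the macrophages came from livers with the deletion in other cells. RevDKO denotes deletion of Nr1d1 and Nr1d2 (REV-ERBα and REV-ERBβ, repressors of the circadian clock), RevScapTKO of both of these and Scap (the escort protein of SREBP), and ScapKO of Scap alone. For the ScapKO hepatocytes the library titles and the cell type labels disagree, the latter giving liver macrophages, and the titles were used here. Values are RPKTM, an RPKM enlarged 10 times, that had been quantile normalized in 4 separate tables: Control, RevDKO and RevScapTKO of each cell type (36 libraries each) and ScapKO of each cell type (12 each). Levels were compared only within a table.

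Some features of the libraries touch the results. In the hepatocyte table all 10 hepatocyte markers were detected, and the sum of 12 macrophage markers had a median of 986 RPKTM (range 268 to 3420) in Control, against 1220 (450 to 2700) with the RevDKO label and 3158 (1045 to 6732) in RevScapTKO libraries. No macrophage marker was at 0 throughout a genotype. The medians of the summed 6 endothelial markers were 1022, 1195 and 1921 RPKTM and those of the summed 6 stellate markers 786, 1092 and 2475 RPKTM in the same order. The macrophage sum also moved with time, from 268 to 741 RPKTM at ZT4 to 2492 to 3420 RPKTM at ZT22 in Control. In the macrophage table the hepatocyte marker sums (medians 91926 to 105310 RPKTM by genotype) exceeded the macrophage sums (medians 9962 to 18913 RPKTM), and 3 libraries had hepatocyte sums of 833777 to 2411070 RPKTM. In the hepatocyte table Scap differed by -1.30 on the log2 scale between RevScapTKO and Control (limma adjusted p = 2.87e-08). Averaged over the day, Nr1d1 was higher in the libraries labelled RevDKO than in Control (1.55, adjusted p = 8.87e-05). By time this difference was 0.0023 at ZT4, 0.95 at ZT10 and 2.52 at ZT16, and it was larger still at ZT22. The fitted difference of Nr1d1 from peak to trough was 5.53 in Control and 2.45 in RevDKO (limma test of a changed rhythm, adjusted p = 0.146). Averaged in the same way, Nr1d1 was also higher than Control in RevScapTKO (1.79, adjusted p = 2.13e-06), with a difference of -0.27 at ZT4. Its fitted difference from peak to trough there was 1.14 (changed rhythm against Control, adjusted p = 0.00415). Nr1d2 differed from Control by 0.62 in RevDKO (adjusted p = 0.0626) and 0.95 in RevScapTKO (adjusted p = 0.000318). The paper reports markedly lower mRNA of both REV-ERB genes in hepatocytes, which these mean levels do not show, and the reason was not tested. The values cover whole transcripts and do not separate deleted from retained exons. The Nr1d1 and Nr1d2 levels thus do not check the deletion, and the genotype names are used as labels. The same limit applies to Scap, although its RevScapTKO minus Control difference was negative at every time point. Among the ScapKO hepatocyte libraries, replicate 2 at ZT22 stood apart, with 1006 RPKTM of Scap against 205 to 380 in the other 11.

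To show where the known stress elements lie, the 250 bases before the start of each gene's transcript were read from the mouse genome build mm9 and searched on both strands. The ER stress response element (ERSE, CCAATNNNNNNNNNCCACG) was present in 0.108% of 25011 such promoters and, among the 10 genes, in that of Hspa5. ERSE-II was present in 0.06% and in that of Herpud1. The core letters CCACG, which both elements contain, were present in 31.3% and in 6 of the 10. The C/EBP-ATF response element that ATF4 binds (CARE, TGATGNAA) was present in 3.06% and in Herpud1, Asns and Chac1. The E-box CACGTG of clock factors was present in 6.51% and in Dnajb9. The form TGACGTGG of the unfolded protein response element (0.564% of promoters) and the cyclic AMP element TGACGTCA (1.92%) matched none of the 10 windows. Nor did 1 form of the REV-ERB and ROR element RORE (0.152%) or 1 form of the sterol regulatory element (0.064%). Other forms of these elements were not searched. The promoters that held ERSE, ERSE-II or CARE are printed 5′ to 3′ on the gene's strand with the matched letters in capitals, together with that of Trib3, which rose in RevScapTKO hepatocytes and had no match. They lie at chr2:34627360-34627609 (Hspa5, + strand), chr8:96910079-96910328 (Herpud1, +), chr6:7643210-7643459 (Asns, −), chr2:119176728-119176977 (Chac1, +) and chr2:152169797-152170046 (Trib3, −).
Hspa5: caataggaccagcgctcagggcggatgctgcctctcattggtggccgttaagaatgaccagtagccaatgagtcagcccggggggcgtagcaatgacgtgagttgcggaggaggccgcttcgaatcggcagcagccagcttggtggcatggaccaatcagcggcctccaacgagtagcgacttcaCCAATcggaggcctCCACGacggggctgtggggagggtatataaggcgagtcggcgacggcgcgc
Herpud1: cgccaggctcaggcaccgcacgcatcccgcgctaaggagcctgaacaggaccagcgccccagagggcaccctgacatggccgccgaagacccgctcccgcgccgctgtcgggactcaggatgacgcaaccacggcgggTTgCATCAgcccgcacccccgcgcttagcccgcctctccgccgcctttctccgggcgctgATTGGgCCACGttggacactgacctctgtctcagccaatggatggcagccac
Asns: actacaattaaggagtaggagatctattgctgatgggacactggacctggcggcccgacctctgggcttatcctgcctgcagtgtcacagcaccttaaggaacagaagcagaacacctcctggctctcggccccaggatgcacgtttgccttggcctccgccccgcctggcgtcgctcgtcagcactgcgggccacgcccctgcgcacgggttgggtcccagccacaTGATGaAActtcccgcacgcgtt
Chac1: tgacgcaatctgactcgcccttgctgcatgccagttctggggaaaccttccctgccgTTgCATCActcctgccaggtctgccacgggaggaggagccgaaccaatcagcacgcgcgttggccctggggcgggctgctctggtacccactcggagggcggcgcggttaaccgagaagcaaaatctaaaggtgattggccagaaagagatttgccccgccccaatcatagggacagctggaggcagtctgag
Trib3: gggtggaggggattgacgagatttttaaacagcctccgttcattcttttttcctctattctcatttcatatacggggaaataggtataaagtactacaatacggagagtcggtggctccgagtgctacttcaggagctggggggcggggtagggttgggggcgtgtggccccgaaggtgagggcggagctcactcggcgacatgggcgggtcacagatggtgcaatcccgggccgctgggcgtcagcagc
In Hspa5 the ERSE ran from 65 to 47 bases before the start, and in Herpud1 the ERSE-II ran from 52 to 42 bases before it. In Asns the CARE began 23 bases before the start, while in Herpud1 and Chac1 it lay on the opposite strand, at 112 and 193 bases. A match is a description of the letters in these windows and says nothing of binding.

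The intron that IRE1 removes from Xbp1 mRNA lies inside exon 4 of 5 (chr11:5424242-5424387) and spans 26 bases at chr11:5424282-5424307 on the + strand. It is shown in capitals with its flanking bases, because its removal is the step that activates the factor.
Xbp1: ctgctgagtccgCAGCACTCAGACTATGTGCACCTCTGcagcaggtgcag
The tables list 2 Xbp1 transcripts, of 2213 and 2240 bases. Their values in a library stood in a median ratio of 0.993 in the hepatocyte table and 0.99 in the macrophage table, so the unspliced and spliced forms cannot be read apart from these values, and Xbp1 is given below as the total.

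The 10 genes spanned a wide range of levels in hepatocytes. Hspa5 (BiP, the main chaperone of the ER) had a median of 4891 RPKTM over the 36 libraries, in percentile 99.7 of all genes. Herpud1, Creb3l3, Xbp1 and Atf4 had levels over 5 RPKTM in all 36 libraries, as did Dnajb9 and Ddit3. Trib3 exceeded 5 RPKTM in 31 libraries, Chac1 in 19 and Asns in 18. All 10 passed the filter of at least 3 libraries over 5 RPKTM in the hepatocyte table, the ScapKO hepatocyte table and the macrophage table of 3 genotypes, and 9 passed it in the ScapKO macrophage table, where Asns did not.

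The comparisons asked how the members' mean level over the day depended on the REV-ERB receptors and on Scap. Differences are on the log2(RPKTM + 1) scale with limma's standard error (SE) and an adjusted p over all 13326 hepatocyte genes tested, with 12 libraries per genotype. In RevDKO minus Control, 2 of the 10 members were called, both lower (Atf4 and Creb3l3), and 4.43% of all genes were called (2.0% higher and 2.43% lower). For RevScapTKO minus RevDKO, 2 of 10 were called, both higher (Hspa5 and Trib3), and 26.2% of all genes (13.5% higher and 12.7% lower). In RevScapTKO minus Control, 4 of 10 were called, Hspa5 and Trib3 higher and Atf4 and Creb3l3 lower, and 35.9% of all genes (17.3% higher and 18.7% lower). In both comparisons with RevScapTKO the share of members called was thus near the share of all genes. The members' median difference was 0.03, 0.08 and -0.12 in the order given, and that of all genes was -0.01, -0.03 and -0.04. At an unadjusted p under 0.05, 4 members and 2242 of all 13326 genes passed in RevDKO minus Control. In such bulk samples fewer cells of a type and less RNA per cell cannot be told apart. The comparisons share libraries, so they are not independent of each other.

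**Figure D1:**
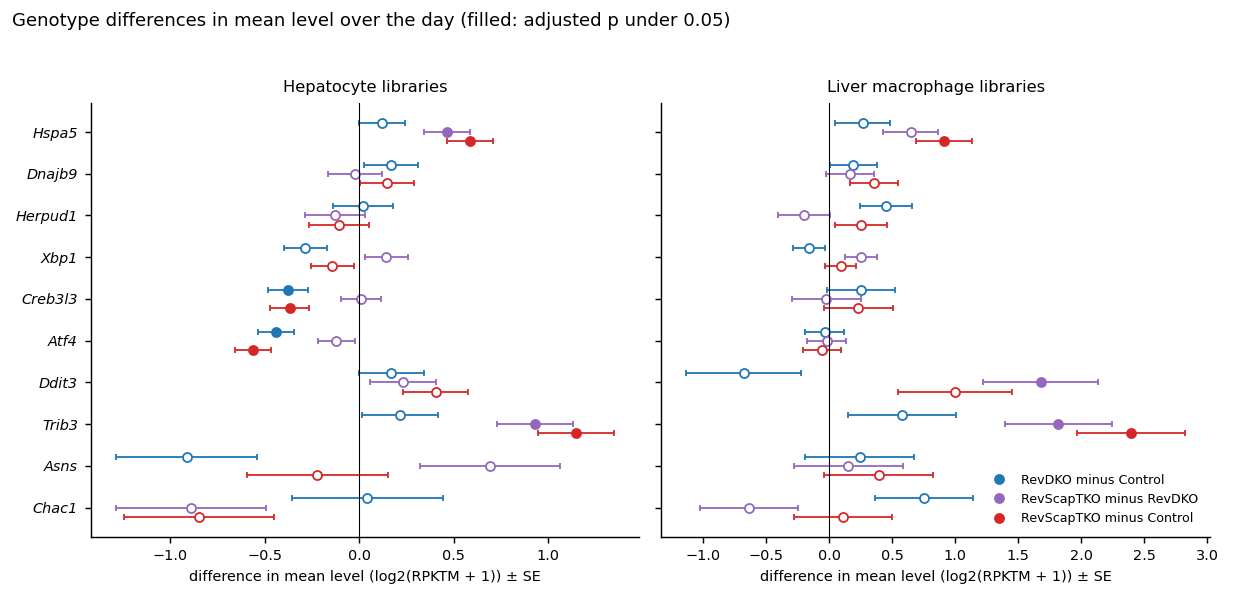
Difference in mean level over the day for each of the 10 genes (x axis, log2(RPKTM + 1) with SE bars, 12 libraries per genotype) in hepatocyte libraries (left) and liver macrophage libraries (right); filled points had a limma adjusted p under 0.05. Hspa5 and Trib3 lie right of 0 in both comparisons with RevScapTKO in hepatocytes, with Trib3 at 1.15 against Control, and Atf4 lies left of 0 against Control in both deletion genotypes.

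Of the chaperone and degradation genes, Hspa5 (chr2:34627610-34632049) changed and its co-chaperone and a degradation gene were not called. In Control hepatocytes Hspa5 measured 3408, 3447 and 4621 RPKTM at ZT4, 3309.8, 2577 and 3185 at ZT10, 4472, 4956 and 5418 at ZT16, and 6110.1, 3544 and 4979.6 at ZT22. In libraries labelled RevDKO it measured 3471, 3714 and 5069 at ZT4, 3389, 2519 and 4139.7 at ZT10, 6304, 4781 and 5601 at ZT16, and 6178, 4139.7 and 5313 at ZT22. In RevScapTKO libraries it measured 6031, 3447 and 7592 at ZT4, 3493, 4869.9 and 4912 at ZT10, 6781, 7154 and 7707 at ZT16, and 8520.4, 8155 and 7485 at ZT22. The Control and RevDKO libraries overlapped at every time point, whereas all RevScapTKO libraries were above all Control libraries at ZT10, ZT16 and ZT22 and above all RevDKO libraries at ZT16 and ZT22. The difference was 0.59 (SE 0.12, limma adjusted p = 0.000379) against Control, a 1.504-fold level, and 0.47 (SE 0.12, adjusted p = 0.00528) against RevDKO.

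Hspa5 moved with the macrophage markers of the same libraries. Over the 36 hepatocyte libraries its log2 level correlated with the mean log2 macrophage marker level with r = 0.80, a description over libraries that share genotypes and times. When that marker level was entered as a covariate in the limma fit, the difference from Control was 0.23 (adjusted p = 0.445) and that from RevDKO 0.14 (adjusted p = 0.783). The markers and the RevScapTKO label rose together, so their part in the Hspa5 difference cannot be told apart here. Among the other 9 members the correlation with the macrophage markers ran from -0.35 (Atf4) to 0.28 (Dnajb9).

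**Figure D2:**
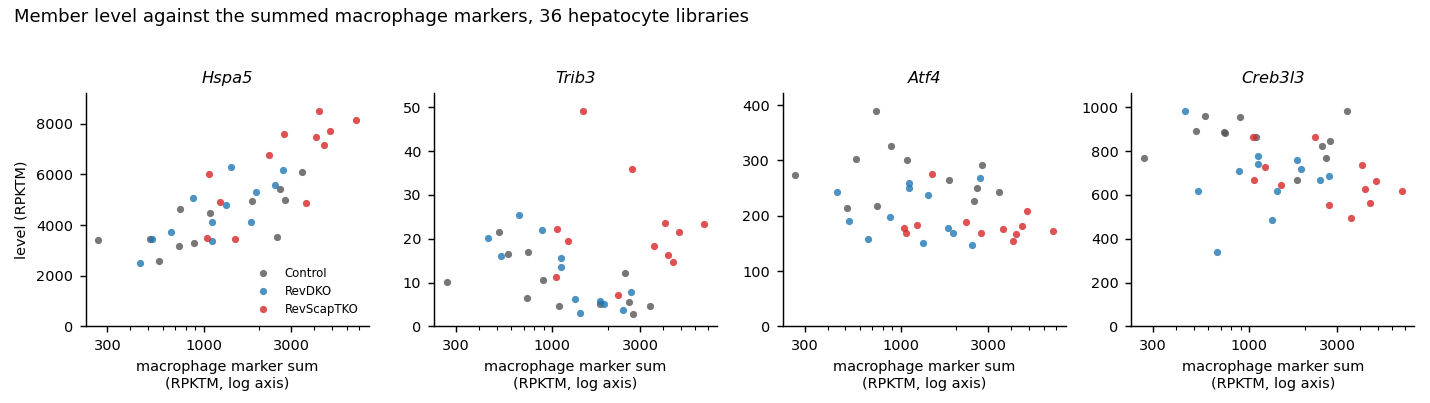
Level of Hspa5, Trib3, Atf4 and Creb3l3 (y axis, RPKTM) against the summed level of 12 macrophage markers (x axis, RPKTM, log axis) in the 36 hepatocyte libraries, each point 1 library coloured by genotype. Hspa5 rises with the marker sum (r = 0.80 on the log2 scale) and the RevScapTKO libraries, with marker sums from 1045 to 6732, lie toward the upper right.

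Dnajb9 (ERdj4, a co-chaperone of BiP, chr12:45306884-45311055) had genotype means of 134 ± 35.4 RPKTM (SD, n = 12) in Control, 148 ± 29.2 under RevDKO and 149 ± 41.7 under RevScapTKO, and it passed no comparison of mean levels. Herpud1 (an ER membrane protein of ER-associated degradation, chr8:96910329-96919271) had means of 1189 ± 249, 1240.4 ± 426 and 1165 ± 466 RPKTM in the same order, with differences from 0.02 to -0.13. Thus the promoters with ERSE and ERSE-II belonged to a gene that rose in RevScapTKO and to one that was not called (Herpud1 RevScapTKO minus Control, -0.11, SE 0.16, adjusted p = 0.628).

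Among the transcription factors, Atf4 was lower in both deletion genotypes. Atf4 (the effector of the integrated stress response, chr15:80085614-80087975) measured 273, 215 and 217 RPKTM at ZT4, 325, 302 and 389.9 at ZT10, 301, 264 and 250.3 at ZT16, and 243, 227 and 292 at ZT22 in Control. In libraries labelled RevDKO it measured 189.7, 159 and 198 at ZT4, 249, 243 and 259 at ZT10, 237, 151 and 146 at ZT16, and 267, 178 and 168 at ZT22. In RevScapTKO libraries it measured 169, 275 and 168 at ZT4, 178, 176 and 182 at ZT10, 188, 182 and 208 at ZT16, and 167, 172 and 154 at ZT22. All RevDKO libraries were below all Control libraries at ZT4, ZT10 and ZT16, and all RevScapTKO libraries were below them at ZT10, ZT16 and ZT22. The difference was -0.44 (SE 0.10, adjusted p = 0.00404) for RevDKO, a level 0.736 times that of Control, and -0.56 (SE 0.10, adjusted p = 4.38e-05) for RevScapTKO. Between RevScapTKO and RevDKO it was -0.12 (SE 0.10, adjusted p = 0.37). With the macrophage markers as a covariate the differences from Control were -0.44 (adjusted p = 0.0043) and -0.53 (adjusted p = 0.0176). ATF4 is controlled mainly at translation, which these RNA levels do not measure.

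Creb3l3 (CREBH, chr10:80547078-80561617) was also lower than in Control in both. It measured 769, 891 and 884 RPKTM at ZT4, 954, 958 and 886 at ZT10, 864, 671 and 768 at ZT16, and 981, 826 and 846 at ZT22 in Control. In libraries labelled RevDKO it measured 618, 342 and 711 at ZT4, 779.6, 985 and 742 at ZT10, 616, 487 and 667 at ZT16, and 686, 762 and 718 at ZT22. In RevScapTKO libraries it measured 670.1, 644 and 557 at ZT4, 865, 495 and 728 at ZT10, 865, 564 and 663 at ZT16, and 628, 619 and 736 at ZT22. All RevDKO libraries were below all Control libraries at ZT4, ZT16 and ZT22, and all RevScapTKO libraries at ZT4, ZT10 and ZT22. The difference was -0.38 (SE 0.11, adjusted p = 0.0318) for RevDKO and -0.37 (SE 0.11, adjusted p = 0.00715) for RevScapTKO. Between RevScapTKO and RevDKO it was 0.0088 (SE 0.11, adjusted p = 0.963). The RevDKO call was lost when any 1 of 10 libraries was left out (adjusted p from 0.0519 to 0.0699). In Control these were replicate 2 at ZT4, 1 and 2 at ZT10, 1 at ZT16 and 1 at ZT22, and in RevDKO replicate 2 at ZT4, 1 and 3 at ZT10, 2 at ZT16 and 1 at ZT22. The RevScapTKO call was lost with the macrophage covariate (-0.17, adjusted p = 0.581).

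Xbp1 (chr11:5420644-5425996) had means of 466 ± 71.1 RPKTM (SD, n = 12) in Control, 382 ± 59.0 in RevDKO libraries and 427 ± 85.3 in RevScapTKO libraries. The difference of -0.29 (SE 0.11) for RevDKO minus Control had an adjusted p of 0.17. All libraries labelled RevDKO were below all Control libraries at ZT4 and ZT22, which is a description only. Ddit3 (CHOP, a factor that promotes cell death under prolonged stress, chr10:126727849-126733344) had means of 21.8 ± 3.81, 25.4 ± 7.78 and 30.1 ± 10.9 RPKTM in the same order. Its RevScapTKO minus Control difference was 0.40 (SE 0.17, adjusted p = 0.0685), with all RevScapTKO libraries above all Control libraries at ZT4 and ZT22. It was called without Control replicate 3 at ZT10 or RevScapTKO replicate 1 at ZT4 or ZT10 (adjusted p from 0.0289 to 0.0445).

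Of the ATF4 and CHOP targets, Trib3 (a pseudokinase that restrains ATF4 and CHOP as feedback, chr2:152163161-152169796) rose in RevScapTKO hepatocytes. It measured 10.2, 21.6 and 16.9 RPKTM at ZT4, 10.6, 16.5 and 6.56 at ZT10, 4.62, 5.05 and 5.55 at ZT16, and 4.69, 12.3 and 2.77 at ZT22 in Control. In libraries labelled RevDKO it measured 15.96, 25.4 and 22.1 at ZT4, 15.7, 20.1 and 13.6 at ZT10, 3.15, 6.35 and 3.67 at ZT16, and 7.83, 5.73 and 5.01 at ZT22. In RevScapTKO libraries it measured 22.3, 49.2 and 35.99 at ZT4, 11.3, 18.3 and 19.4 at ZT10, 7.21, 14.7 and 21.6 at ZT16, and 16.2, 23.4 and 23.7 at ZT22. All RevScapTKO libraries were above all Control libraries at ZT4, ZT16 and ZT22, and above all RevDKO libraries at ZT16 and ZT22, the times at which the other genotypes were low. The difference was 1.15 (SE 0.20, adjusted p = 5.71e-05) against Control, a 2.22-fold level, and 0.93 (SE 0.20, adjusted p = 0.00103) against RevDKO. With the macrophage markers as a covariate it was 0.92 (adjusted p = 0.0518) and 0.72 (adjusted p = 0.206). The correlation of Trib3 with those markers over the 36 libraries was -0.08, a description that does not separate genotype from time.

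Asns (asparagine synthetase, chr6:7625165-7643209) and Chac1 (a glutathione-degrading enzyme, chr2:119176978-119180062), which carried CARE letters in their promoters, were low and variable. Asns had means of 10.2 ± 9.63 RPKTM in Control, 4.86 ± 5.72 in libraries labelled RevDKO and 7.13 ± 5.64 with the RevScapTKO label (SD, n = 12), with a RevDKO minus Control difference of -0.91 (SE 0.37, adjusted p = 0.185). Chac1 had means of 8.23 ± 6.22, 8.39 ± 4.99 and 4.40 ± 3.96 RPKTM, with a RevScapTKO minus Control difference of -0.85 (SE 0.40, adjusted p = 0.0963). Neither passed any comparison. Chac1 was called in RevScapTKO minus Control without RevScapTKO replicate 3 at ZT10, 1 at ZT16 or 3 at ZT22 (adjusted p from 0.0379 to 0.0485), and in RevScapTKO minus RevDKO without RevDKO replicate 1 at ZT10 or RevScapTKO replicate 1 at ZT16 or 3 at ZT22 (adjusted p from 0.0319 to 0.0407).

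**Figure D3:**
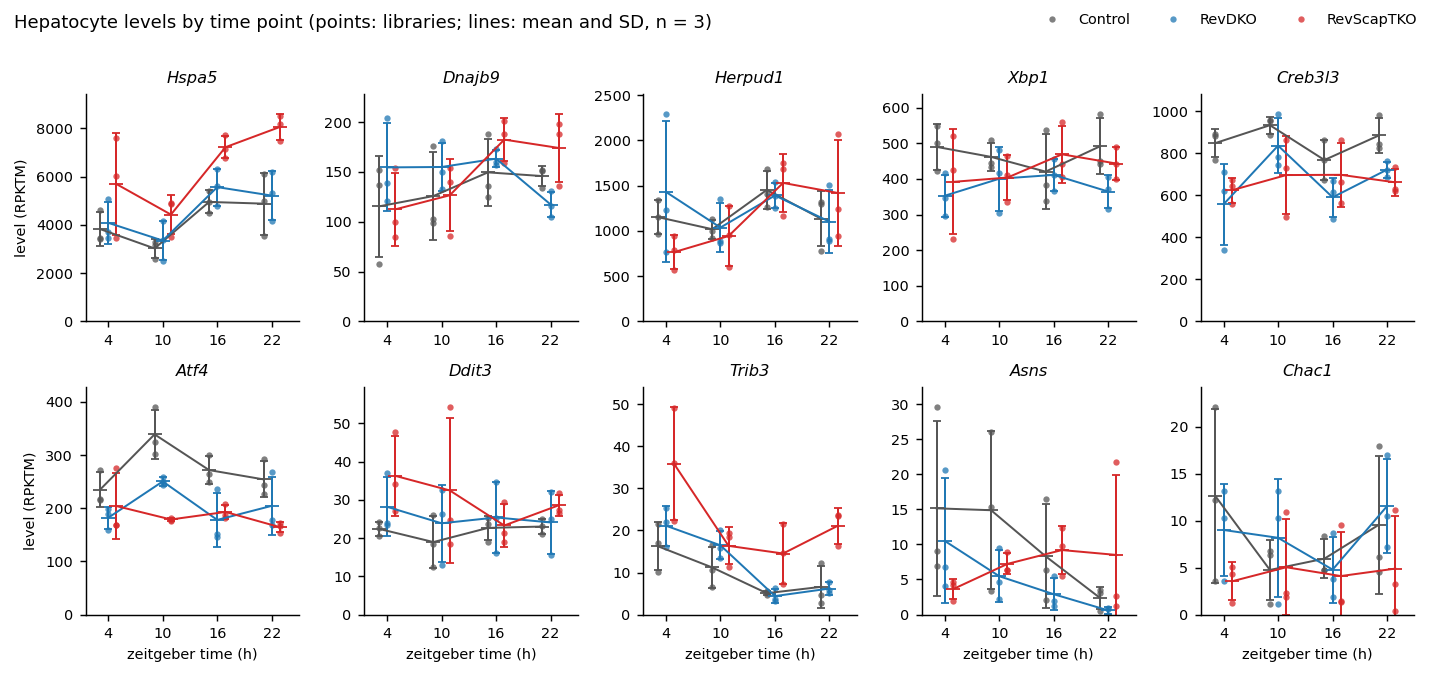
Levels of the 10 genes (y axis, RPKTM from 0) by zeitgeber time (x axis, h) in hepatocytes of Control (grey), RevDKO (blue) and RevScapTKO (red), drawn side by side at each time; points are libraries and lines join means with SD bars (n = 3). At ZT22 the RevScapTKO libraries of Hspa5 (7485 to 8520.4) and Trib3 (16.2 to 23.7) lie above both other genotypes.

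A wider list of 107 genes of the same pathways, grouped by role, was measured alongside, and 101 of them were tested in hepatocytes. In RevScapTKO minus Control, 24 were higher and 11 lower, where 35.9% of all genes were called (17.3% higher and 18.7% lower), with a median of 0.07 against -0.04 for all genes. With the macrophage markers, which were higher in the RevScapTKO libraries, as a covariate, the calls in the list went from 35 to 6 (Tnfrsf10b and Bbc3 of the stress effectors, Apoa4, Slc6a9, Ppp1r15b and Pdia3) and those among all genes from 4789 to 795. Tnfrsf10b, Nupr1, Slc7a11 and Slc7a1 are counted among the 24 higher, and Tnfrsf10b among the 6. They could enter the test only by being higher in RevScapTKO, so these calls are no support. Of 17 ER chaperones and folding enzymes 8 were higher and none lower, beside 17.3% of all genes higher, with a group median of 0.40, and with the macrophage covariate 1 of the 8, Pdia3, was called (0.43, adjusted p = 0.0266). They included Hsp90b1 (GRP94, 0.54), Pdia3 (0.53), Pdia6 (0.51) and Dnajc10 (0.69), and their differences were near that of Hspa5. Of 6 sensors and site proteases, Ern1 (0.52), Eif2ak3 (0.45) and Atf6 (0.23) were higher. Of 12 degradation genes, Syvn1, Edem2 and Os9 were higher, and of 14 secretory pathway genes Ssr3 was. Of 7 eIF2α kinases and phosphatase subunits, Eif2ak2 was higher and Ppp1r15b lower.

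In that comparison genes downstream of ATF4 were called in both directions, beside 17.3% of all genes higher and 18.7% lower. With the macrophage covariate the calls went from 7 to 2 for stress factors and effectors. They went from 5 to 1 for amino acid genes and from 3 to 0 for aminoacyl-tRNA synthetases. Of 12 stress factors and effectors 4 were higher and 3 lower, with Tnfrsf10b (the death receptor DR5, 1.68), Nupr1 (1.60) and Fgf21 (a hepatokine, 1.55) among the higher and Ddit4 (-1.37), Bbc3 (PUMA, -1.28, adjusted p = 0.000159) and Cebpb (-0.75) lower. Of 12 amino acid synthesis and transport genes, Slc7a11 (the cystine transporter, 2.19) and Slc7a1 were higher and Psph (-0.61), Shmt2 and Slc6a9 lower. Tnfrsf10b, Nupr1, Slc7a11 and Slc7a1 met the filter on low values only through the RevScapTKO libraries (10, 3, 7 and 7 of 12 over 5 RPKTM, against at most 1 in each other genotype), so they could enter the test only by being higher there and their differences are given as values. Of 12 aminoacyl-tRNA synthetases none was higher and Tars (-0.63), Cars and Mars were lower. Of 9 CREB3 family members and CREBH targets, Apoa4 (2.67, adjusted p = 1.22e-06) and Creb3l2 were higher and Crp lower, although Creb3l3 itself was lower.

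In RevScapTKO minus RevDKO, 22 of the 101 were higher and 11 lower, where 26.2% of all genes were called (13.5% higher and 12.7% lower), with a median of 0.06. With the macrophage covariate these 33 calls went to 2 (Tnfrsf10b and Bbc3) and those among all genes from 3498 to 362. Atf3 (1.81) and Apoa4 (1.73) rose, and Bbc3 (-1.19), Ddit4 (-0.99), Tars (-0.72), Apcs (-0.60) and Atf5 (-0.55) fell. Slc7a11 (2.32), Tnfrsf10b (2.01), Nupr1 (1.88) and Slc7a1 were again tested only through the RevScapTKO libraries. They are counted among the 22 higher, and Tnfrsf10b among the 2 calls left with the covariate. In RevDKO minus Control, Apcs (0.74, adjusted p = 0.01) was higher and Slc6a9 (a glycine transporter, -1.02, adjusted p = 4.26e-06), Sesn2 (-0.59) and Cebpb lower, where 4.43% of all genes were called, with a median of -0.01. With the macrophage covariate the members' calls in RevScapTKO minus Control went from 4 to 1 (Atf4).

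**Figure D4:**
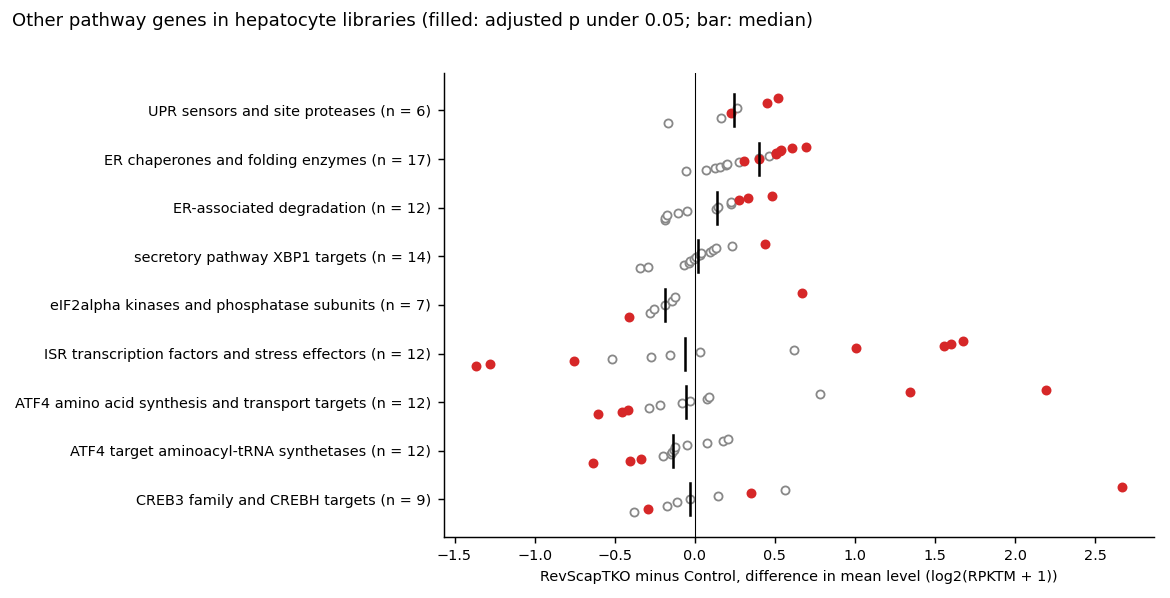
RevScapTKO minus Control difference in mean hepatocyte level (x axis, log2(RPKTM + 1)) for the genes tested in each of 9 groups of the wider list; each point is 1 gene, filled where the limma adjusted p was under 0.05, and bars are group medians. The 17 chaperones lie mostly right of 0 (median 0.40), whereas the 12 stress factors and effectors spread from -1.37 (Ddit4) to 1.68 (Tnfrsf10b).

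Daily rhythm was tested as the 24 h cosine and sine terms within each genotype, with the size given as the fitted difference from peak to trough on the log2 scale. Trib3 was the member with a rhythm in Control hepatocytes (1.66, peak ZT5.94, adjusted p = 0.0234), where 8.29% of all genes had one. In libraries labelled RevDKO it was again Trib3 (2.43, peak ZT6.13, adjusted p = 0.00394), where 4.08% of all genes had one. Its Control call was lost without replicate 2 or 3 at ZT4 or replicate 2 at ZT16 (adjusted p from 0.0521 to 0.0885) and with the macrophage covariate (2.16, adjusted p = 0.086). In RevScapTKO limma called 0 members and 0.683% of all genes, whereas the rank test JTK_CYCLE, with the series entered 2 times, called Hspa5 (adjusted p = 0.00201), Herpud1 (0.0107), Trib3 (0.0107) and Dnajb9 (0.0226), and 0 with the series entered 1 time. By limma Trib3 had a size of 1.35 in RevScapTKO (adjusted p = 0.152) and Hspa5 of 0.97 (peak ZT20.3, adjusted p = 0.0872). At an unadjusted p under 0.05, 4 members and 2437 of 13326 genes passed there.

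The test of a changed rhythm between genotypes called no member in hepatocytes. It called 0.203% of all genes for RevDKO minus Control, 0.0% for RevScapTKO minus RevDKO and 0.188% for RevScapTKO minus Control. At an unadjusted p under 0.05, 674 genes passed for RevScapTKO minus RevDKO, Trib3, Dnajb9 and Asns among them. The loss of the Trib3 call in RevScapTKO is therefore not shown to be a difference between genotypes.

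Hspa5 had fitted peaks at ZT20.0 in Control (0.76, adjusted p = 0.103), ZT19.7 in RevDKO (0.79, adjusted p = 0.108) and ZT20.3 in RevScapTKO, none of which passed in limma. With the replicate number as a block it passed in Control (adjusted p = 0.0490) and RevScapTKO (0.0395). JTK_CYCLE with the series entered 2 times, which counts each library 2 times, called it in both (adjusted p = 0.00201 each). With the series entered 1 time JTK_CYCLE called it in neither (adjusted p = 0.0906 each). The macrophage marker sum of these libraries was likewise highest at ZT22, and with those markers as a covariate the Hspa5 size in Control was 0.15 (adjusted p = 0.918).

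The ScapKO hepatocytes were measured in a table of their own. There 1.85% of 12724 genes had a rhythm, and among the members it was Hspa5. Hspa5 measured 12995, 9655 and 12850.0 RPKTM at ZT4, 4457, 4232 and 5343 at ZT10, 4742, 5275 and 4218 at ZT16, and 5384, 7172 and 6163 at ZT22, so that all libraries at ZT4 were above all others. The fitted size was 1.37 with a peak at ZT2.83 (adjusted p = 0.00341), and it was called whichever library was left out (adjusted p from 0.000461 to 0.0192). The macrophage marker sums at ZT4 (593, 1595 and 999 RPKTM) lay within the range of the other times, and their correlation with Hspa5 over the 12 libraries was 0.05. The difference in peak time from the genotypes of the other table was not tested, because the tables were normalized apart.

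Chac1, Trib3, Ddit3, Herpud1 and Creb3l3 also had their highest mean at ZT4 in ScapKO hepatocytes, without passing the test. Chac1 measured 90.0, 99.1 and 30.8 RPKTM at ZT4, 8.46, 13.2 and 1.22 at ZT10, 8.46, 7.10 and 1.101 at ZT16, and 0, 20.8 and 6.94 at ZT22, with all ZT4 libraries above the rest (size 3.61, adjusted p = 0.177). Without the ZT22 library that stood apart, its adjusted p was 0.0395. Trib3 measured 77.2, 41.9 and 51.4 RPKTM at ZT4, 29.2, 11.3 and 10.4 at ZT10, 18.1, 13.9 and 15.9 at ZT16, and 9.52, 22.02 and 36.3 at ZT22, again with every ZT4 library above the rest (1.77, adjusted p = 0.168). Ddit3 had means of 43.4 ± 20.4, 19.9 ± 5.02, 23.5 ± 5.86 and 24.1 ± 8.06 RPKTM (SD, n = 3) from ZT4 to ZT22 (0.83, adjusted p = 0.522). Herpud1 went from 3957 ± 816 RPKTM at ZT4 to 2211 ± 719 at ZT22 (adjusted p = 0.659) and Creb3l3 from 2093 ± 229.9 to 1694 ± 417 (adjusted p = 0.726). Atf4, from 257 to 348 RPKTM by time, and Xbp1, from 1029 to 1273 RPKTM, were not called either (adjusted p = 0.593 and 0.738).

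**Figure D5:**
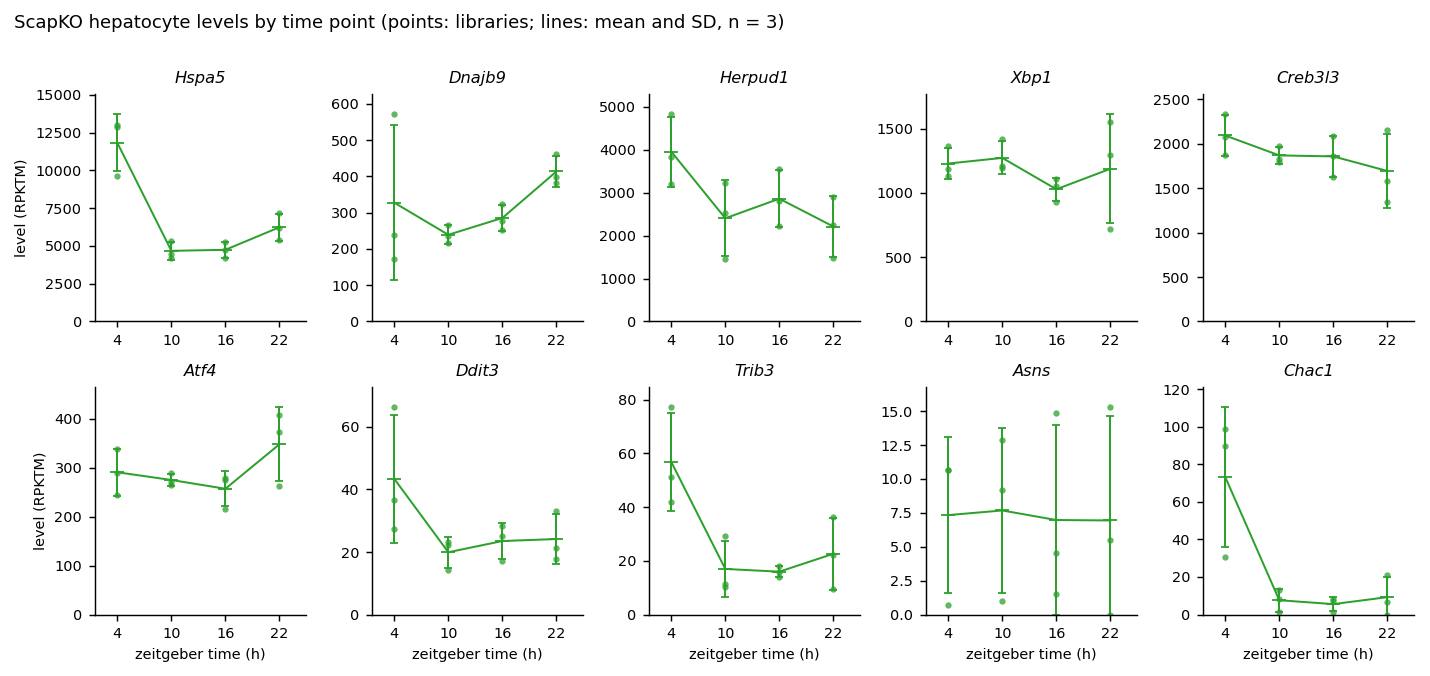
Levels of the 10 genes (y axis, RPKTM from 0) by zeitgeber time (x axis, h) in ScapKO hepatocytes; points are libraries and lines join means with SD bars (n = 3). Hspa5 (9655 to 12995), Trib3 (41.9 to 77.2) and Chac1 (30.8 to 99.1) have all ZT4 libraries above those of the other times.

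In the liver macrophage libraries, whose cells were not the target of the deletion, the members called were Hspa5, Trib3 and Ddit3. In RevDKO minus Control no member was called by limma, with 0.574% of 13947 genes called. Herpud1 (0.45, SE 0.21, adjusted p = 0.331) was the member that passed an unadjusted p under 0.05, as did 1934 genes in all. In RevScapTKO minus RevDKO, 2 of 10 were called, both higher (Trib3 and Ddit3), with 3.0% of all genes called (1.23% higher and 1.78% lower). In RevScapTKO minus Control, 2 of 10 were called, both higher (Hspa5 and Trib3), with 3.76% of all genes called (2.38% higher and 1.38% lower). Trib3 met the filter on low values only through the RevScapTKO libraries, so it could enter both tests only by being higher there. Its differences are given below as values, and these counts are not set against the shares of all genes. The members' median difference was 0.25, 0.16 and 0.30 and that of all genes -0.04, 0.04 and -0.04 in the same order.

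In these libraries Hspa5 measured 1054, 939 and 1035 RPKTM at ZT4, 846, 424 and 846 at ZT10, 913, 1113 and 1280.1 at ZT16, and 1359, 324 and 1706 at ZT22 in Control. In libraries labelled RevDKO it measured 765, 1176 and 1098 at ZT4, 969, 884 and 859.9 at ZT10, 1309, 472 and 1359 at ZT16, and 1706, 1749.8 and 1513 at ZT22. In RevScapTKO libraries it measured 2478, 1169 and 1801 at ZT4, 819.5, 1801 and 1252 at ZT10, 1441, 1986 and 1863 at ZT16, and 2399, 2299 and 2108 at ZT22. All RevScapTKO libraries were above all Control libraries at ZT4, ZT16 and ZT22. The difference was 0.91 (SE 0.22, adjusted p = 0.0131) against Control, a 1.88-fold level, and 0.65 (SE 0.22, adjusted p = 0.11) against RevDKO.

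Trib3 in macrophage libraries was listed at 0 in 5 of 12 Control and 3 of 12 RevDKO libraries and in none labelled RevScapTKO. It measured 1.86, 8.90 and 4.90 RPKTM at ZT4 in Control, 4.62, 4.87 and 7.40 in RevDKO, and 15.96, 17.8 and 30.3 in RevScapTKO. The RevScapTKO libraries measured 1.23, 17.9 and 20.3 at ZT10, 0.671, 9.87 and 24.497 at ZT16, and 4.00, 8.55 and 17.0 at ZT22. All were above all Control and all RevDKO libraries at ZT4 and ZT22. In Control and RevDKO 1 library each exceeded 5 RPKTM, against 9 in RevScapTKO, so Trib3 met the filter on low values only through the group in which it was higher. The difference, given as a value, was 2.40 (SE 0.43) against Control, a 5.27-fold level on the RPKTM + 1 scale, and 1.82 (SE 0.43) against RevDKO. The limma call against RevDKO was lost with a pseudocount of 0.1 (adjusted p = 0.0579).

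Ddit3 ranged from 3.11 to 34.8 RPKTM in Control (median 8.91), from 0 to 54.5 in RevDKO (median 8.11) and from 14.4 to 40.5 in RevScapTKO (median 20.1). The RevScapTKO minus RevDKO difference was 1.68 (SE 0.45, adjusted p = 0.0338), with all RevScapTKO libraries higher at ZT4, ZT10 and ZT22. This call was lost when any 1 of 9 libraries was left out (adjusted p from 0.0523 to 0.08), namely replicate 2 of RevDKO at each of the 4 times, replicate 2 of RevScapTKO at ZT4, ZT10 and ZT16, and its replicate 3 at ZT16 and ZT22. Ddit3 was listed at 0 in 3 of those RevDKO libraries. RevScapTKO minus Control was 0.997 (SE 0.45, adjusted p = 0.243).

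Hepatocyte markers were detected in all macrophage libraries, as given above. The log2 level of Hspa5 correlated with the mean log2 hepatocyte marker level with r = 0.36 and with that of the macrophage markers with r = -0.51 over the 36 libraries. The summed macrophage markers had medians of 18913, 9962 and 10478 RPKTM in Control, RevDKO and RevScapTKO. Those of the stellate markers were 726, 841 and 1179.5 RPKTM. Neither was entered as a covariate in these libraries, so their part in the differences was not tested. With the mean log2 hepatocyte marker level as a covariate, the RevScapTKO minus Control difference was 1.065 for Hspa5 (adjusted p = 0.0015) and, as a value, 2.78 for Trib3. Without the 3 libraries of highest hepatocyte sum it was 0.96 for Hspa5 (adjusted p = 0.0155) and 2.38 for Trib3, while Ddit3 in RevScapTKO minus RevDKO was 1.64 (adjusted p = 0.0677). In the wider list, 102 genes were tested in these libraries. By limma 0 were called in RevDKO minus Control, where 0.574% of all genes were. At an unadjusted p under 0.05, 14 of the 102 passed there, beside 1934 of 13947 genes. In RevScapTKO minus RevDKO 5 were higher and 2 lower (3.0% of all genes called). In RevScapTKO minus Control 4 were higher (3.76%), namely Apoa4 (3.65), Fgf21 (3.62), Syvn1 (0.95) and Srpr (0.63). The Syvn1 call was lost without the 3 libraries of highest hepatocyte sum (0.65, adjusted p = 0.289) and when any 1 of 18 of the 24 libraries was left out (adjusted p up to 0.110). In RevScapTKO minus RevDKO the calls held without any 1 library for Fgf21 (2.74) and Apoa4, while those of Derl2, Atf3, Slc7a11, Tars and Slc7a1 were lost without any 1 of 16, 16, 15, 11 and 9 libraries. Atf3 had an adjusted p of 0.153 and Slc7a11 of 0.117 with a pseudocount of 0.1, and Derl2 of 0.0759 without the same 3 libraries. Slc7a11 met the filter there through RevScapTKO alone. Apoa4, an apolipoprotein gene, and Fgf21 are known as hepatocyte genes, and the part of hepatocyte RNA in their values was not tested.

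JTK_CYCLE with the series entered 2 times called 2, 2, 2 and 1 members in Control, RevDKO, RevScapTKO and ScapKO macrophages, and 1426, 2201, 1075 and 1914 genes in all. By limma 0 members had a daily rhythm in any of them, with 1, 3, 1 and 3 at an unadjusted p under 0.05. At that p 1114, 2618 and 520 of 13947 genes passed in the first 3 genotypes. Limma called rhythms for 0.0502% of all genes in Control, 2.53% in RevDKO, 0.0789% in RevScapTKO and 0.0% in ScapKO, the last with 1412 of 13930 genes at an unadjusted p under 0.05. Changed rhythms were called for 0.0% of genes in each of the 3 comparisons, with 767 genes at an unadjusted p for RevDKO minus Control, 498 for RevScapTKO minus RevDKO and 238 for RevScapTKO minus Control. In ScapKO macrophages Hspa5 measured 3023, 4187 and 4122 RPKTM at ZT4 and from 1832 to 3175 at the other times (0.67, peak ZT2.27, adjusted p = 0.484). These ZT4 values were above those at ZT10 and ZT22, and in the macrophage table of 3 genotypes the fitted peaks of Hspa5 lay between ZT21.0 and ZT22.3.

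The genes whose log2 level followed each member most closely over the 36 hepatocyte libraries were described by Pearson's r, with libraries sharing genotype, time and marker content. For Hspa5 they were Filip1l (0.87) and Cd44 (0.84), for Trib3 Ocln (0.81) and Cd2ap (0.79), and for Atf4 Prr5 (0.69) and Adgrg2 (0.68). For Creb3l3 they were the histone genes Hist1h1e (0.78) and Hist1h1c (0.77), and for Herpud1 Angptl4 (0.79) and Zfp128 (0.69). Dnajb9 followed Spcs3 (0.67), a signal peptidase subunit, and Alg2 (0.66), a glycosylation enzyme. For Ddit3 they were Mdm2 (0.69) and Ttk (0.64), for Xbp1 Id2 (0.73) and Foxq1 (0.66), for Asns Epb41l5 and Eprs (0.63 each), and for Chac1 Lgr4 (0.62) and Lysmd4 (0.61). Among the members themselves the highest r was 0.57 (Atf4 with Creb3l3) and the lowest -0.50 (Hspa5 with Atf4), and within groups of genotype and time these were 0.11 and -0.03.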

How the data were processed

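The authors removed ribosomal RNA, sequenced stranded libraries, used STAR for alignment to mm9 and HOMER for counting over RefSeq transcripts. The deposited values are RPKM scaled by 10 (RPKTM), quantile normalized in 4 tables apart, with 42322 transcripts of 25095 symbols each. Tool versions and the use of strand in counting were not given in the sources used here. Depth is unknown, so precision rests on the spread between libraries labelled as replicates, which is all that the p-values measure. All columns were mapped to samples by name.

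From these values, log2(RPKTM + 1) was fitted with limma 3.58.1 (R 4.3.3, mean-variance trend, 1 mean per genotype and time point) for genes with at least 3 libraries over 5 RPKTM. Fold changes are on that scale and understate those of low genes. Mean levels were the average of the 4 time points, and rhythms F tests of the 24 h cosine and sine terms. Statements that all libraries of a group lay above or below those of another describe the members. The share of all genes for which this held was not counted. The limma p-values were adjusted by Benjamini and Hochberg over all genes tested, with a threshold of 0.05. Those of JTK_CYCLE were adjusted over its 7 patterns and not over genes. Scripts were tested on simulated data (Python 3.11.15, numpy 2.4.6, pandas 2.3.3). Marker lists of hepatocytes, macrophages, endothelial and stellate cells, neutrophils, lymphocytes, cholangiocytes and erythroid cells were summed per library. In the hepatocyte table the sums of the last 4 had medians by genotype of 7.94 to 16.2, 1.17 to 1.86, 1.34 to 2.93 and 162 to 230 RPKTM.

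All 10 members were named in every comparison. Of the wider list, named genes were up to 5 per direction with the largest change among those called with 1 sign at all 4 time points. Further names (such as Hsp90b1, Pdia3, Pdia6, Dnajc10, Ern1, Eif2ak3 and Atf6) were given after their values were seen, to describe groups. For each member the 2 best correlated genes were named. Members, lists and rules were chosen with earlier results of these data known. Alternatives were pseudocounts of 0.1 and 10, no filter, a replicate block, marker covariates, only the compared genotypes, leaving out each library, JTK_CYCLE, and, chosen after seeing the data, leaving out 3 macrophage libraries with hepatocyte marker sums over 500000 RPKTM.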

Additional observations from a re-analysis of the deposited data

How the results depend on the processing

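Leaving out each library in turn, the members called ranged from 0 to 1 for the daily rhythm in Control hepatocytes, 0 to 3 in RevScapTKO and 1 to 2 in ScapKO hepatocytes. For mean levels in hepatocytes they ranged from 1 to 2 (RevDKO minus Control), 2 to 3 (RevScapTKO minus RevDKO) and 4 to 5 (RevScapTKO minus Control), and in the wider list from 2 to 5, 30 to 38 and 30 to 42. In macrophages the members ranged from 1 to 3 (RevScapTKO minus RevDKO) and 2 to 2 (RevScapTKO minus Control), and the wider list from 0 to 4, 2 to 8 and 3 to 11. Members that changed sign without 1 library were none of those called there: in hepatocytes Chac1 (-0.12 to 0.26) and Herpud1 (-0.083 to 0.11) in RevDKO minus Control, and Creb3l3 (-0.071 to 0.066) and Dnajb9 (-0.082 to 0.043) in RevScapTKO minus RevDKO, and in macrophages Asns (-0.020 to 0.42) and Atf4 (-0.085 to 0.021) in RevDKO minus Control, Atf4 (-0.14 to 0.00067) and Chac1 (-0.15 to 0.27) for RevScapTKO minus Control, and Asns (-0.022 to 0.41), Atf4 (-0.10 to 0.037) and Creb3l3 (-0.14 to 0.14) for RevScapTKO minus RevDKO. With the marker covariate the members called were 1 and 0 in the hepatocyte comparisons of RevScapTKO with Control and RevDKO and 0 for the Control rhythm, the wider list 6 and 2, and in macrophages the wider list 3 (RevDKO minus Control) and 12 (RevScapTKO minus Control). Uncalled members changed sign with it: Herpud1 in hepatocytes (0.030 in RevScapTKO against RevDKO and 0.064 against Control), and in macrophages Atf4 (0.062 for RevDKO against Control, 0.020 for RevScapTKO against RevDKO and 0.082 for RevScapTKO against Control) and Creb3l3 (0.046 for RevScapTKO against RevDKO). With a pseudocount of 0.1 the macrophage RevScapTKO minus RevDKO members called were 0, and with 10 Asns there was -0.0014, the wider list for RevDKO minus Control 1 and the ScapKO hepatocyte rhythms 2. With no filter on low values the wider list was 2 in hepatocytes (RevDKO against Control) and 3 in macrophages (RevScapTKO against RevDKO), where the members were 1. With only the 2 genotypes compared the wider list was 8 (hepatocytes) and 2 (macrophages) for RevDKO minus Control, and the macrophage RevScapTKO minus RevDKO members 1. Without the 3 hepatocyte-rich libraries these were also 1, and the uncalled Chac1 (-0.12) and Creb3l3 (-0.090) changed sign for RevScapTKO minus Control. JTK_CYCLE, a rank test, with the series entered 2 times called 2, 2, 4 and 4 members in Control, RevDKO, RevScapTKO and ScapKO hepatocytes and 2, 2, 2 and 1 in macrophages, and with the series entered 1 time it called 0 in Control and 0 in ScapKO hepatocytes. With the series entered 2 times it called 2693, 2649, 1538 and 1683 genes in all in those hepatocytes. For these results the cause was not tested.

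The main fit did not use the replicate numbers as pairs. Deviations of same-numbered libraries from their group means correlated over 0.1 in 45 of 198 pairs in the hepatocyte table and 85 of 198 in the macrophage table. Their mean r was 0.038 in the hepatocyte table and 0.090 in the macrophage table, against -0.019 and -0.044 for different numbers. Whether same-numbered libraries share a batch or source was not tested. With the replicate block, rhythms were called for 2 members in Control and 1 in RevScapTKO hepatocytes (Hspa5 in both, beside Trib3 in Control), and the macrophage wider list was 1 (RevDKO against Control) and 8 (RevScapTKO against Control).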

Other observations

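Genes of the wider list also had daily rhythms. In Control hepatocytes 11 of 101 were called, where 8.29% of all genes were, among them Creld2 (1.79, peak ZT20.7), Manf (1.15, peak ZT21.0) and Dnajb11 (0.81, peak ZT20.1), which encode ER chaperones and folding factors, and the degradation ligase gene Syvn1 (1.33, peak ZT20.8). In RevDKO 3 were called (Ern1, Creld2 and Slc6a9), where 4.08% of all genes were. In RevScapTKO limma called 0 of them and 0.683% of all genes. At an unadjusted p under 0.05, 26 of the 101 passed there, beside 2437 of 13326 genes. In ScapKO hepatocytes 8 of 97 were called, where 1.85% of all genes were, with Calr (0.90, peak ZT3.19) and Pdia4 (0.89, peak ZT3.51) near the peak time of Hspa5. In RevDKO macrophage libraries 11 of 102 were called, where 2.53% of all genes were, and by limma 0 in Control (21 at an unadjusted p), RevScapTKO (10) and ScapKO (17). At that unadjusted p 1114 and 520 of 13947 genes passed in Control and RevScapTKO, and 1412 of 13930 in ScapKO. These genes were named after their values were seen, and the differences between genotypes were not tested for the list.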
